A study of Mus musculus with 143 samples.

Results

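Wild-type mice given an siRNA against huntingtin, HTT-10150, at 6 months of age were compared with wild-type mice given a non-targeting siRNA, NTC, at the same age, and the striatum of both groups was collected at 10 months, the schedule labelled 6[4]10. The 16 libraries of this comparison, 8 per group with 4 females and 4 males in each, were taken by their labelled sample group from the 143 libraries of the series, each from the striatum of 1 mouse. The question was what the siRNA changed in the striatal transcriptome of mice that carry no expanded Htt allele. Beside them, use was made of 8 untreated wild-type mice of the same age, 24 mice of the zQ175 genotype on the same schedule (8 per siRNA and 8 untreated), and the wild-type mice given either siRNA on 2 other schedules, 2[4]6 (given at 2 months, collected at 6 months) and 2+6[8]10 (given at 2 and at 6 months, collected at 10 months; 7 mice given HTT-10150 and 8 given NTC). Untreated wild-type and zQ175 mice on 2[4]6, 8 of each, gave another choice of genes that differ between the genotypes. The fits within the other schedules and of all 143 libraries also held zQ175 mice given either siRNA and untreated mice of both genotypes. The 7 wild-type mice given HTT-10150 on 2+6[8]10 were 2 females and 5 males, while all other groups had 4 of each sex. The labels state no mouse strain, siRNA dose or route.

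Huntingtin, the product of Htt, is a large scaffold protein that takes part in vesicle transport along microtubules, in endocytosis and in autophagy, and it is made in most cells. Expansion of a CAG repeat in its first exon causes Huntington's disease, in which the medium spiny projection neurons of the striatum are the most vulnerable cells, and zQ175 mice carry such an expanded repeat in the mouse gene. An siRNA is a short RNA duplex of which 1 strand is loaded into an Argonaute protein and directs cleavage of the mRNA it pairs with, whereas a non-targeting siRNA enters the same machinery without a matching mRNA. Wild-type mice carry normal mouse Htt alone, so any lowering here is of the normal transcript.

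The libraries held between 14.5 M and 23.8 M counts (median 18.3 M), and levels are given below as CPM, counts scaled to a common library total, after TMM normalization. A log2 fold change of the fitted model is written as log2 ± its standard error, and a gene was called changed at a Benjamini-Hochberg adjusted p under 0.05 in the quasi-likelihood test of edgeR over all 15757 genes tested. Medium spiny neuron markers were abundant in every library, with summed levels of 7276 to 8868 CPM after HTT-10150 and 7546 to 9164 CPM after NTC, against 7074 to 9175 CPM in untreated mice. Markers of the choroid plexus, the ventricular epithelium next to the striatum, stood apart in 2 libraries: their sum was 2586 CPM in HTT-10150 female 2 against 43.7 to 144.3 CPM in the other 7 libraries of that group, and 887 CPM in NTC male 1 against 38.8 to 186 CPM in the other 7. Cortical excitatory markers ranged from 17.1 to 214 CPM after HTT-10150 and from 10.1 to 376 CPM after NTC, highest in NTC female 4. In bulk tissue, a change in the number of cells of a type and a change in the RNA per cell cannot be told apart.

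Htt, on chromosome 5 (34761740-34912534, plus strand, GRCm38), was lower in the mice given HTT-10150. Its level in the 4 treated females was 119.4, 134.3, 137.1 and 137.9 CPM, and in the 4 treated males it was 78.1, 94.7, 143.3 and 149.2 CPM. In the 8 NTC mice it ran from 144.4 to 171.7 CPM with a median of 158.5 CPM, and in the 8 untreated mice from 152.5 to 164.3 CPM with a median of 158.3 CPM. On this CPM scale, 7 of the 8 treated mice were below every NTC mouse. The exception, male 1 at 149.2 CPM, was below every untreated mouse. In the TPM values described with the processing, 5 of the 8 treated mice were below every NTC mouse. Male 1 was there at 28.1 TPM, within the untreated range of 26.7 to 31.5 TPM.

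The group means were 124.3 ± 25.3 CPM after HTT-10150, 157.1 ± 8.14 CPM after NTC and 158.4 ± 3.97 CPM in untreated mice (SD, n = 8 each). HTT-10150 mice were 20.9% below NTC mice (two-sided exact permutation test, p = 0.000466, where the smallest p for 8 against 8 is 0.000155). Against untreated mice, Htt was 21.6% lower after HTT-10150 (exact permutation p = 0.000155, adjusted over the 2 comparisons with untreated mice 0.000311) and 0.833% lower after NTC (exact permutation p = 0.663, adjusted 0.663). In the fit of all genes, the fold change against NTC was -0.34 ± 0.08, which is 21.04% lower with a 95% interval from 11.5% to 29.6%. It had rank 3 by p among all genes tested (unadjusted p = 0.000208), and with edgeR's adjustment over all genes it was not called (adjusted p = 0.82).

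The treated mice differed among themselves more than the controls did. Relative to the NTC mean, the 4 females were 12.2%, 12.7%, 14.5% and 23.97% lower, and the 4 males 4.98%, 8.77%, 39.7% and 50.3% lower. The females thus lay close together, while the males split into a pair near the controls and a pair with the largest reduction of the group. Within females the mean was 132.2 ± 8.64 CPM after HTT-10150 against 155.6 ± 4.89 CPM after NTC, with all 4 treated mice below all 4 controls (exact permutation p = 0.0286, the smallest possible for 4 against 4; adjusted over both sexes 0.0571). Within males it was 116.3 ± 35.3 CPM against 158.5 ± 11.2 CPM, with 3 of 4 below every control (exact permutation p = 0.0571, adjusted 0.0571). The difference of the fold change between the sexes, -0.21 ± 0.17 for males minus females, did not pass (edgeR, unadjusted p = 0.219, adjusted p = 0.9999), and its 95% interval runs from -0.54 to 0.12.

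**Figure D1:**
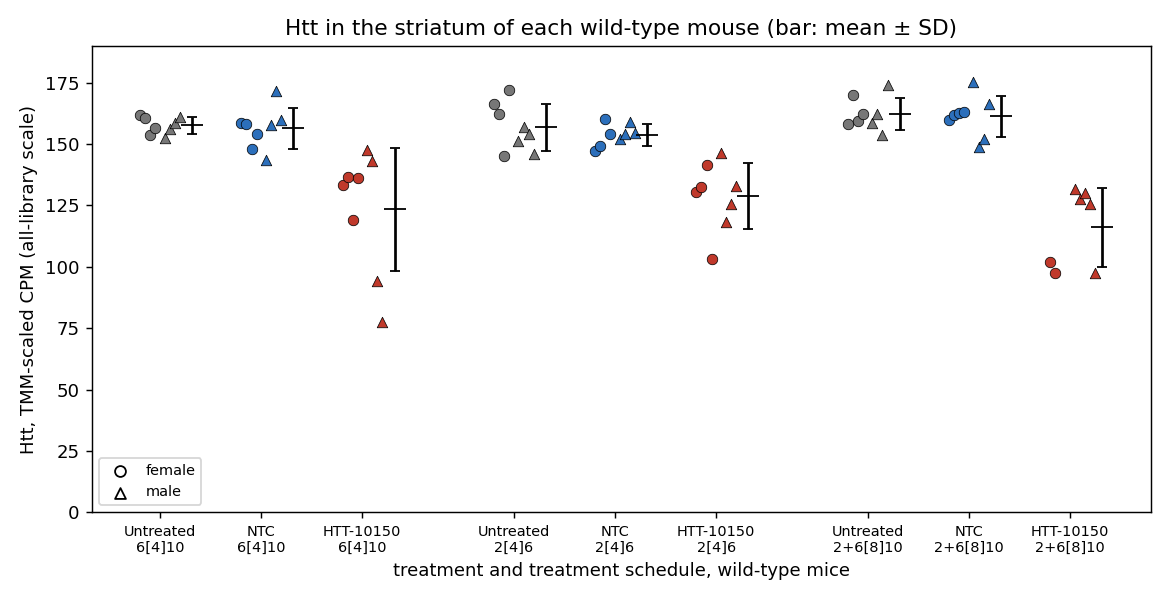
Level of Htt (y axis, TMM-scaled CPM on a scale common to all 143 libraries) in each wild-type mouse, by treatment and schedule (x axis); circles are females, triangles males, and the bar beside each group is its mean ± SD. On 6[4]10 the treated mice spread from 77.6 to 147.8 CPM, the lowest being a pair of males, while the NTC mice lie between 143.6 and 171.6 CPM.

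On the other schedules the same siRNA gave a fold change of Htt of -0.26 ± 0.05 (2[4]6) and -0.49 ± 0.06 (2+6[8]10) in wild-type mice, each fitted within its own schedule. On the scale common to all libraries, the SD among the treated wild-type mice was 25.1 CPM on 6[4]10, 13.5 CPM on 2[4]6 (n = 8) and 16.02 CPM on 2+6[8]10 (n = 7). In a single fit of all 143 libraries, the fold change on 6[4]10 differed from that on 2[4]6 by -0.09 ± 0.09 (unadjusted p = 0.354) and from that on 2+6[8]10 by 0.15 ± 0.10 (unadjusted p = 0.136); neither difference passed edgeR's adjusted threshold (both adjusted p = 1). The 95% intervals of these differences run from -0.27 to 0.10 and from -0.04 to 0.34. In zQ175 mice on 6[4]10 the fold change was -0.32 ± 0.08, and its difference from wild type was 0.03 ± 0.12 (unadjusted p = 0.83), with a 95% interval from -0.21 to 0.26.

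Neither Htt nor any other gene passed the threshold in the fit of the 48 libraries on 6[4]10: 0 of 15757 genes were called, a share of 0%. Without adjustment, 240 genes were higher and 277 lower at p under 0.05, together 3.28% of those tested, and the smallest adjusted p was 0.82. DESeq2 called 0 genes and had 484 at an unadjusted p under 0.05, and limma voom called 0 and had 528. The fit that included all 143 libraries, with 16295 genes tested, called 1 gene on this contrast, Htt itself (-0.34 ± 0.07, adjusted p = 0.0181, 0.00614% of genes tested). The median size of a fold change was 0.04 on the log2 scale, and of the 13288 genes with a mean log2 CPM over 1, 86 had a larger fold change than Htt in either direction.

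The 10 genes of smallest p among those that were lower (mean log2 CPM over 1, same direction in both sexes) had fold changes between -0.17 and -0.09, and none of them was called. Their unadjusted p ran from 7.51e-05 to 0.0025. Atad1, an ATPase that pulls misplaced proteins out of the outer mitochondrial membrane, ran from 84.6 to 92.2 CPM (median 88.9) after HTT-10150 and from 90.98 to 101.8 CPM (median 96.4) after NTC (-0.13 ± 0.03, unadjusted p = 7.51e-05). Smu1, a splicing factor, ran from 49.7 to 53.7 CPM against 52.9 to 59.7 CPM (-0.12 ± 0.03, unadjusted p = 0.000141). In both genes 6 of 8 treated mice were below every NTC mouse, and the groups overlapped. The untreated medians lay between those of the siRNA groups, at 92.3 CPM for Atad1 and 54.1 CPM for Smu1.

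Aptx, which encodes the DNA strand-break repair protein aprataxin, lies near Smu1 on chromosome 4 (40682382-40703194, against 40736542-40757923 for Smu1, both on the minus strand). Its level was 24.1 to 27.3 CPM after HTT-10150 and 26.1 to 28.8 CPM after NTC (-0.13 ± 0.04, unadjusted p = 0.00124). Between them lies Dnaja1, a chaperone gene whose end overlaps Smu1 by 608 bases on the other strand and whose fold change was -0.04 ± 0.06 (unadjusted p = 0.553). Whether counting used strand is not stated in the labels, so reads from exon bases shared on opposite strands may not be told apart. Ndufs1 with Ino80dos and P2ry12 with Med12l also overlap on opposite strands. These overlaps are of whole gene positions, introns included, and how much of them is exon was not measured. The other 7 were Ints14 (an Integrator subunit), Srp72 (of the signal recognition particle), Rnf121 (a ubiquitin ligase of the secretory pathway), Sucla2 (a succinyl-CoA synthetase subunit of the citric acid cycle), Mmaa (vitamin B12 handling), Cbx3 (heterochromatin protein HP1 gamma) and Cfap36. Of these, Ints14, Srp72 and Cbx3 had 7 of 8 treated mice below every NTC mouse, the same number as Htt. Genes chosen by small p in this comparison tend to separate its groups, and the share of all genes doing so is not given.

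The 10 genes of smallest p among those that were higher had fold changes between 0.13 and 0.37, again with none called. Gas1, a membrane-bound co-receptor for Hedgehog ligands, ran from 5.40 to 6.81 CPM (median 6.09) after HTT-10150 and from 3.67 to 5.62 CPM (median 4.85) after NTC, with 6 of 8 treated mice above every NTC mouse (0.34 ± 0.09, unadjusted p = 0.000208). Its groups overlapped, and untreated mice had a median of 5.50 CPM. The others named here were Sema3g (a secreted semaphorin), Bicdl1 (a dynein adaptor), Lima1 (an actin-binding protein), Il4ra (a subunit of the IL-4 and IL-13 receptors), 6330403L08Rik, and 3 genes of microglia and macrophages described below.

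Untreated mice give another reference for these genes, and each comparison with them shares a group with the comparison that chose the genes. For the 10 lower genes the median fold change was -0.12 against NTC, -0.06 for HTT-10150 against untreated and 0.07 for NTC against untreated. For the 10 higher genes it was 0.27 against NTC, 0.08 for HTT-10150 against untreated and -0.16 for NTC against untreated. For Htt, HTT-10150 against untreated was -0.35 ± 0.08 and NTC against untreated -0.01 ± 0.08. Lima1 was 0.22 ± 0.06 against NTC, but -0.02 ± 0.06 against untreated mice, while NTC mice were at -0.24 ± 0.06 against untreated. Of the microglial genes among them, Lyz2 was at 0.26 ± 0.11 against untreated mice (unadjusted p = 0.0162), Olfml3 at 0.06 ± 0.07 (unadjusted p = 0.355) and Fcrls at 0.10 ± 0.08 (unadjusted p = 0.203). NTC mice were at -0.06 ± 0.11, -0.17 ± 0.07 and -0.14 ± 0.08 for these genes against untreated. Over all genes, 0 of 15757 (0%) were called for NTC against untreated (394 at an unadjusted p under 0.05, smallest adjusted p 0.272) and 0 (0%) for HTT-10150 against untreated (409, smallest adjusted p 0.103).

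**Figure D2:**
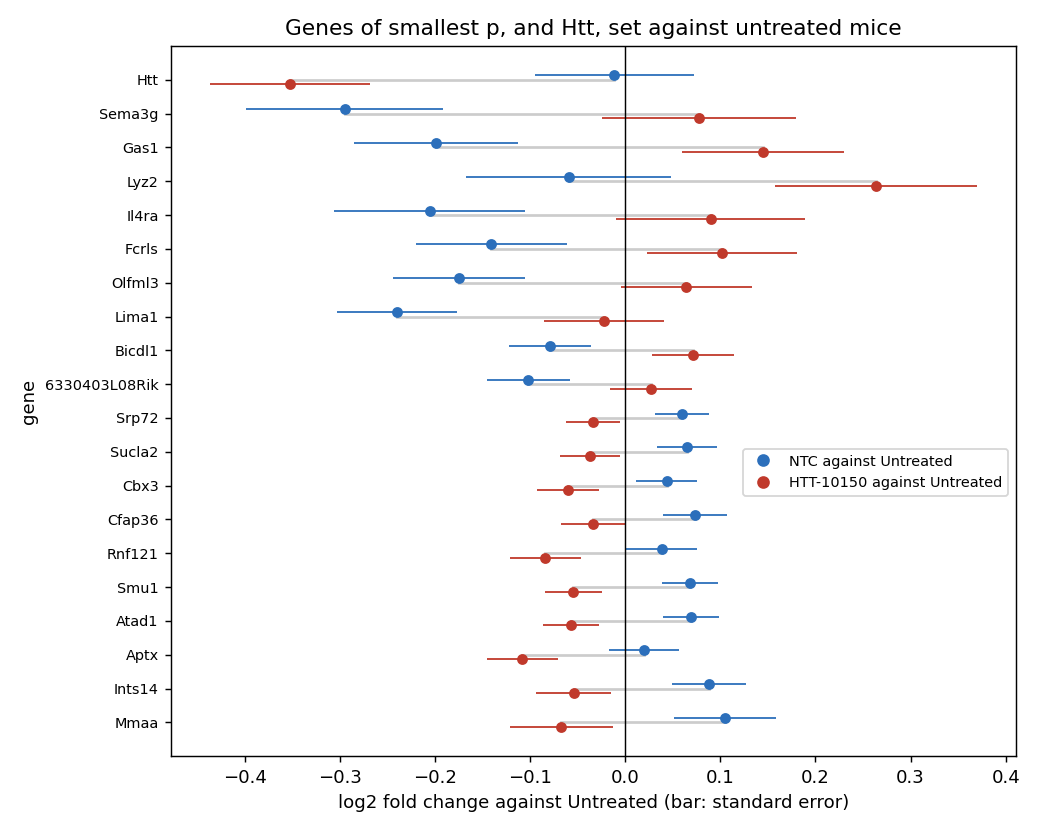
Log2 fold change against untreated wild-type mice (x axis, with standard error) of Htt and of genes of smallest p (y axis, the 10 lower and 9 of the 10 higher), for NTC mice in blue and HTT-10150 mice in red. For Htt the NTC value is near 0 and the HTT-10150 value is -0.35, and the medians of all 10 higher genes are -0.16 for NTC and 0.08 for HTT-10150; both values of a gene share the untreated mice.

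These genes were then read in other mice. The zQ175 mice were part of the model of 48 libraries that ranked the genes, while mice on the other schedules were not. On 2[4]6 in wild-type mice, 14 of the 20 had the same direction, 3 of them at an unadjusted p under 0.05, and the median fold change was -0.06 for the lower and 0.03 for the higher genes. On 2+6[8]10 it was 15 of 20, again 3 at that p, with medians of -0.02 and 0.09. In zQ175 mice on 6[4]10 it was 8 of 20, 2 at that p, with medians of 0.02 and 0.04. Over all genes tested in both sets, 58.1% had the same direction on 2[4]6, 54.9% on 2+6[8]10 and 46.2% in zQ175 mice. An unadjusted p under 0.05 in either direction was reached by 5.93%, 5.24% and 3.56% of genes tested in these sets. Of the lower genes, Srp72 had the smallest p outside the comparison (-0.09 ± 0.03 on 2[4]6, unadjusted p = 0.00162, adjusted p = 0.81). Across genes with a mean log2 CPM over 1, the fold changes correlated with those of wild-type mice on 2[4]6 at Pearson's r = 0.32 (Spearman's rho = 0.24, 13288 genes), on 2+6[8]10 at r = 0.24 (rho = 0.15, 13287 genes), and with those of zQ175 mice on 6[4]10 at r = -0.35 (rho = -0.12, 13288 genes). These are descriptions across genes, which are not independent, and the sets share no mice. The choroid plexus list, described below, had median fold changes of 0.44 here, 0.90 on 2[4]6, 0.50 on 2+6[8]10 and -2.21 in zQ175 mice. Its part in the positive and the negative correlations was not tested.

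A trio of genes expressed by microglia and macrophages, Fcrls, Olfml3 and Lyz2, were among the 10 higher genes. Fcrls, an Fc receptor-like scavenger receptor gene used as a marker of microglia, ran from 16.3 to 28.01 CPM (median 22.6) after HTT-10150, from 14.4 to 25.2 CPM (median 18.9) after NTC and from 17.6 to 26.5 CPM (median 19.4) in untreated mice. Of the 8 treated mice, 6 were above the NTC median and 2 above every NTC mouse, so the groups overlapped widely. The fold change was 0.24 ± 0.08 against NTC (unadjusted p = 0.00364) and, as given above, 0.10 ± 0.08 against untreated mice. Against NTC it was also higher in the other sets: 0.17 ± 0.07 on 2[4]6 (unadjusted p = 0.027), 0.27 ± 0.08 in zQ175 mice on 6[4]10 (unadjusted p = 0.00144), and 0.48 ± 0.07 on 2+6[8]10, where edgeR called it (adjusted p = 6.18e-05). The difference of its fold change between 6[4]10 and 2+6[8]10, -0.23 ± 0.11, did not pass (unadjusted p = 0.0353, edgeR adjusted p = 1).

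Olfml3, a secreted olfactomedin-like protein made by microglia, ran from 16.8 to 26.04 CPM after HTT-10150 and from 16.5 to 22.2 CPM after NTC, with 4 of 8 treated mice above every NTC mouse (0.24 ± 0.07, unadjusted p = 0.0012, against 0.06 ± 0.07 relative to untreated mice). Its fold change was 0.12 ± 0.06 on 2[4]6, 0.28 ± 0.07 on 2+6[8]10 and 0.20 ± 0.07 in zQ175 mice, and none of these was called. Lyz2, the lysozyme of myeloid cells, ran from 7.06 to 11.9 CPM after HTT-10150 and from 6.38 to 9.72 CPM after NTC, with 6 of 8 above every NTC mouse (0.32 ± 0.11, unadjusted p = 0.00374). It was at 0.28 ± 0.11 on 2[4]6, 0.41 ± 0.11 on 2+6[8]10 and 0.09 ± 0.10 in zQ175 mice. The defining microglial markers gave a less even picture: Tmem119 was at 0.24 ± 0.08 (22.01 to 34.8 CPM against 19.3 to 27.1 CPM), while P2ry12, the microglial ADP receptor, was at 0.05 ± 0.05, the fractalkine receptor Cx3cr1 at 0.09 ± 0.05 and Aif1, which encodes the microglial protein Iba1, at 0.11 ± 0.11. The summed level of these 4 markers ran from 114 to 160 CPM (median 139) after HTT-10150, from 122 to 139 CPM (median 127) after NTC and from 126.1 to 145.4 CPM (median 128.7) in untreated mice, and the groups overlapped.

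**Figure D3:**
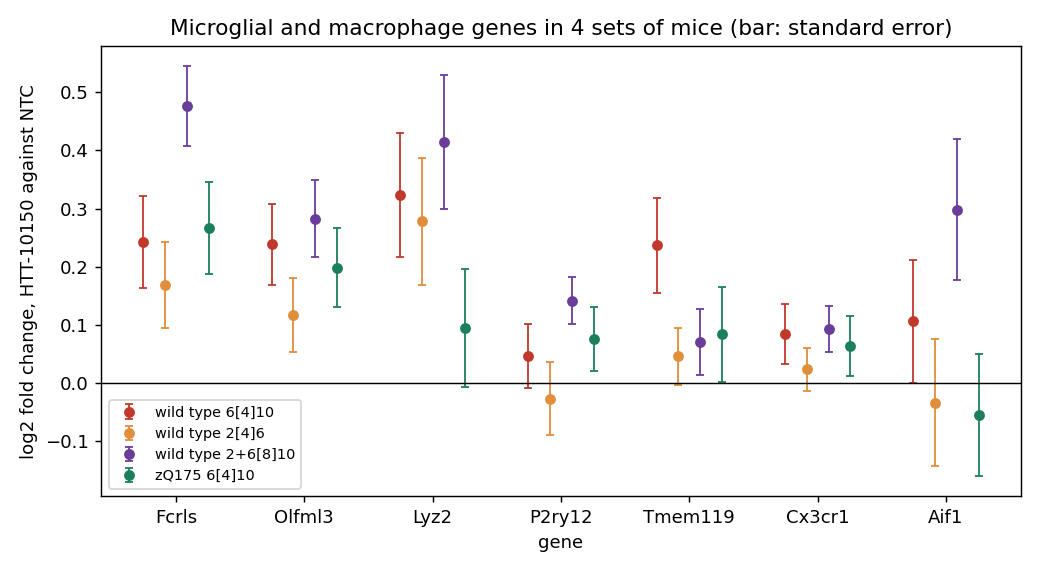
Log2 fold change of HTT-10150 against NTC (y axis, with standard error) for Fcrls, Olfml3, Lyz2 and 4 microglial markers (x axis) in wild-type mice on 6[4]10 (red), 2[4]6 (orange) and 2+6[8]10 (purple) and in zQ175 mice on 6[4]10 (green). Fcrls and Olfml3 are above 0 in all 4 sets, with the highest values on 2+6[8]10 (0.48 and 0.28), while P2ry12 and Aif1 lie on both sides of 0.

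Gene lists were read against the background of all genes tested, of which 49.2% had a fold change above 0 with a median of -0.001 and 0% were called. The 28 lists named 547 genes, of which 521 were tested. None of them was called, and apart from Htt 21 (4.04%) had an unadjusted p under 0.05, beside 3.28% of all genes. Of the 20 homeostatic microglia genes, 17 were above 0 (median 0.07), and of the 21 activated microglia genes 18 were (median 0.06); 3 and 2 of them, all higher, had an unadjusted p under 0.05. Among the latter was the chemokine gene Ccl3, at 0.229 to 0.39 CPM after HTT-10150 and 0.0448 to 0.274 CPM after NTC, the least abundant gene named here. In the other wild-type sets, the homeostatic list had 12 of 20 genes above 0 on 2[4]6 (median 0.03) and 19 of 20 on 2+6[8]10 (median 0.14), and in zQ175 mice 18 of 20 (median 0.07). The activated list had 14 of 21 above 0 on 2[4]6 (median 0.04), 16 of 21 on 2+6[8]10 (median 0.10) and 10 of 21 in zQ175 mice (median -0.005).

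Lists of the vessel wall and the meninges were also higher on the median, and both were lower in NTC than in untreated mice. Of 21 endothelial and mural genes 19 were above 0 (median 0.05; NTC against untreated -0.12, with 1 of 21 above 0), and of 15 meningeal and fibroblast genes 11 were (median 0.18; NTC against untreated -0.18, with 1 of 15 above 0). Flt1, a VEGF receptor, was at 0.14 ± 0.06 (unadjusted p = 0.0391) and Cdh5, the endothelial cadherin, at 0.14 ± 0.06 (unadjusted p = 0.0403). The collagen gene Col3a1 was at 0.55 ± 0.24 and the proteoglycan gene Bgn at 0.39 ± 0.18. Against untreated mice, HTT-10150 gave -0.06 ± 0.06 for Flt1, 0.00 ± 0.06 for Cdh5, -0.05 ± 0.22 for Col3a1 and 0.17 ± 0.18 for Bgn. Bgn was highest in HTT-10150 female 2, the library with the most choroid plexus RNA, at 14.9 CPM, and its fold change was 0.23 ± 0.17 without that library (unadjusted p = 0.177).

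The interferon and nucleic acid sensing lists concern the innate response that foreign RNA can evoke. Of 23 interferon response genes, 18 were above 0 against NTC (median 0.08), with 1 at an unadjusted p under 0.05, Ifit3b (0.29 ± 0.14; 4.58 to 7.07 CPM against 3.03 to 6.29 CPM). The transcription factor gene Irf9 was at 0.20 ± 0.10 (unadjusted p = 0.0504). Both siRNA groups were below untreated mice on this list, with medians of -0.38 for NTC and -0.21 for HTT-10150 and 1 of 23 genes above 0 in each; these share the untreated mice. Of 18 nucleic acid sensing genes 13 were above 0 (median 0.08), among them Nfkbia, the inhibitor of NF-kappa-B (0.25 ± 0.09, unadjusted p = 0.0107), and Myd88, the adaptor of Toll-like receptors (0.20 ± 0.10, unadjusted p = 0.0439). Against untreated mice, 5 of these 18 were above 0 for NTC (median -0.08) and 9 for HTT-10150 (median -0.003). The small RNA machinery, which includes the Argonautes, had 8 of 19 genes above 0 (median -0.01) and 0 at that p; Ago4 was at -0.09 ± 0.07 and Tarbp2, a Dicer partner, at -0.09 ± 0.06.

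No identity gene of striatal neurons passed the test, and neither did any other of the 15757 genes. Of 42 medium spiny neuron genes, 12 were above 0 (median -0.03), and 0 had an unadjusted p under 0.05, beside 3.28% of all genes. In the other sets, 1 gene of this list was above 0 on 2[4]6 (median -0.11), 6 on 2+6[8]10 (median -0.04) and 2 in zQ175 mice (median -0.06). Against untreated mice, 4 were above 0 for HTT-10150 (median -0.06) and 7 for NTC (median -0.02). The dopamine receptor genes Drd1 (257 ± 14.97 CPM against 265 ± 14.3 CPM, SD, n = 8 each) and Drd2 (173 ± 8.22 CPM against 173 ± 9.99 CPM) had fold changes of -0.04 ± 0.09 and 0.00 ± 0.08. The neuropeptide genes Penk (-0.02 ± 0.08), Pdyn (0.05 ± 0.12) and Tac1 (-0.11 ± 0.07), the adenosine receptor gene Adora2a (-0.04 ± 0.12) and the signalling genes Pde10a (-0.09 ± 0.09) and Ppp1r1b, which encodes DARPP-32 (-0.01 ± 0.09), did not pass either. The smallest p on this list was that of Cnr1, the cannabinoid receptor gene, at 262 to 366 CPM after HTT-10150 and 306 to 450 CPM after NTC (-0.20 ± 0.10, unadjusted p = 0.0617). The indirect and direct pathway lists had 3 of 10 and 4 of 12 genes above 0, with medians of -0.03 each. The interneuron list had 12 of 20 above 0 (median 0.03), with the hormone precursor gene Trh at 0.28 ± 0.13 (unadjusted p = 0.0396).

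No partner of huntingtin passed the test, and neither did any other of the 15757 genes. Of 23 genes on the list of partners besides Htt, 8 were above 0 (median -0.02) and 0 had an unadjusted p under 0.05, beside 3.28% of all genes. Hap1, huntingtin-associated protein 1, was at 0.07 ± 0.09 and Zdhhc17, the palmitoyltransferase of huntingtin, at -0.06 ± 0.03. Bdnf, a trophic factor whose transport depends on huntingtin and whose mRNA comes mostly from cortex, was at 0.432 to 6.23 CPM after HTT-10150 and 0.419 to 8.61 CPM after NTC (-0.22 ± 0.61), with its highest value in NTC female 4, which also had the most cortical markers. Msantd1, which overlaps Htt by 4523 bases on the same strand, was at -0.24 ± 0.13 (unadjusted p = 0.073).

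No glial or metabolic gene passed the test, and neither did any other of the 15757 genes. Of all genes, 3.28% had an unadjusted p under 0.05. The astrocyte list had 14 of 18 genes above 0 (median 0.03) and the reactive astrocyte list 13 of 16 (median 0.08), where the cytokine receptor gene Osmr was at 0.36 ± 0.14 (unadjusted p = 0.0124) and Gfap at -0.07 ± 0.18. Against untreated mice, the reactive list had 2 of 16 above 0 for NTC (median -0.10) and 6 for HTT-10150 (median -0.03). The astrocyte list had 6 of 18 (median -0.02) and 11 of 18 (median 0.01). Oligodendrocyte genes were split, with 12 of 21 above 0 (median 0.00), and the precursor list had 8 of 12 (median 0.02), with Enpp6, a gene of newly formed oligodendrocytes, at -0.24 ± 0.09 (unadjusted p = 0.0101). Of 29 respiratory chain genes 5 were above 0 (median -0.03), and 2, both lower, had an unadjusted p under 0.05: Ndufs1 of complex I (-0.10 ± 0.03, unadjusted p = 0.00251) and Uqcrc2 of complex III (-0.07 ± 0.03, unadjusted p = 0.0208). NTC mice were at 0.06 ± 0.03 and 0.07 ± 0.03 for these genes against untreated mice. Of the whole list, 27 of 29 were above 0 for NTC against untreated (median 0.04) and 19 for HTT-10150 against untreated (median 0.01). Cholesterol synthesis (10 of 20 above 0, median 0.00), autophagy and vesicle transport (11 of 25, median -0.01), p53 targets (11 of 18, median 0.01) and mismatch repair (5 of 15, median -0.02) had 0 genes at that p. In the integrated stress response list (11 of 19 above 0, median 0.01) the amino acid transporter gene Slc7a5 was at 0.15 ± 0.05 (unadjusted p = 0.00549) and Nupr1 at -0.21 ± 0.10 (unadjusted p = 0.0397), and in the chaperone list (12 of 21, median 0.01) Dnajb1 was at 0.15 ± 0.07 and Cct8 at -0.08 ± 0.03.

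**Figure D4:**
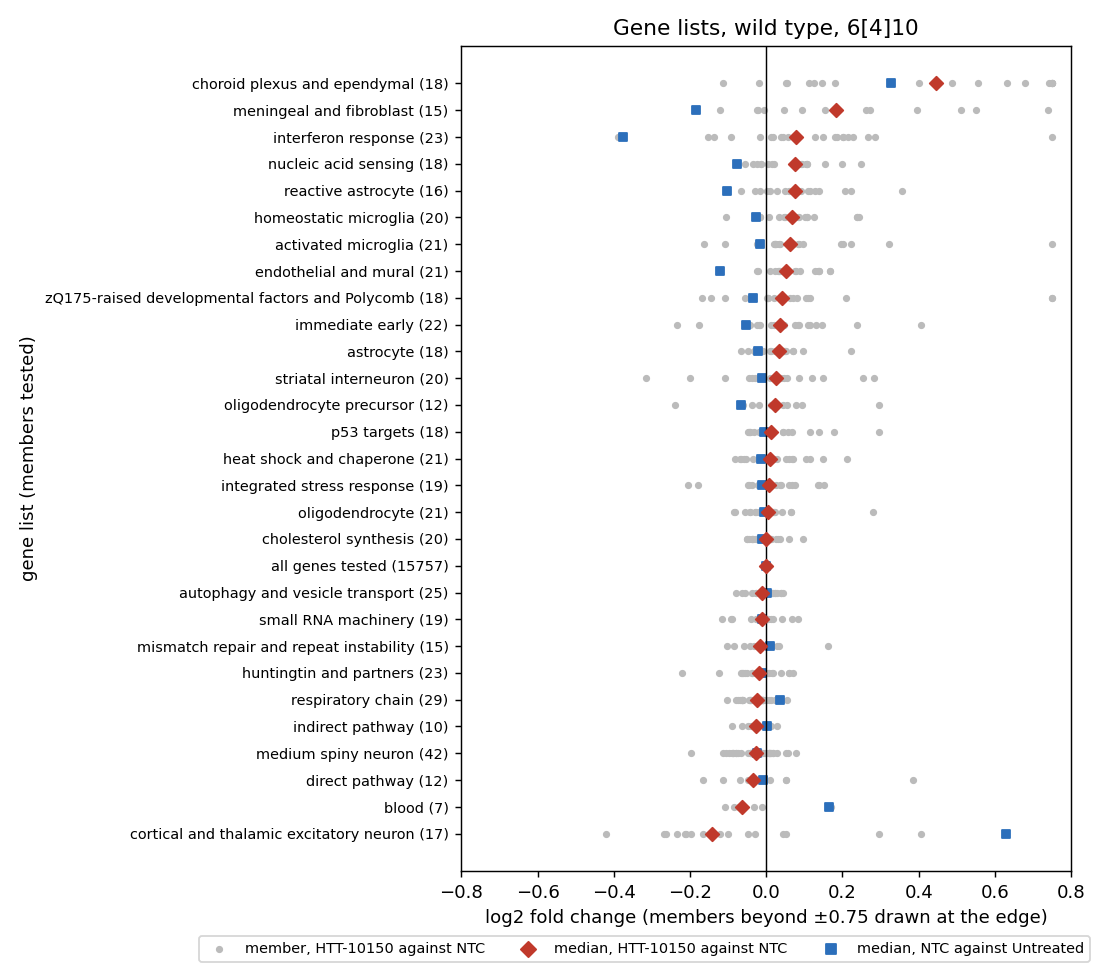
Log2 fold change (x axis) of the members of each gene list (y axis, number tested in brackets): grey points are members and red diamonds medians for HTT-10150 against NTC, and blue squares are medians for NTC against untreated, which shares the NTC mice; members beyond 0.75 are drawn at the edge. The choroid plexus list has the highest median (0.44) and the excitatory neuron list the lowest (-0.14).

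Tissue next to the striatum was read from further lists. The choroid plexus and ependymal list had 16 of 18 genes above 0 (median 0.44), with a median of 1.65 in females and -0.34 in males, the sexes in which HTT-10150 female 2 and NTC male 1 fall. Folr1, a folate receptor of the choroid plexus, was at 23.6 CPM in HTT-10150 female 2 and at 0.33 to 1.51 CPM in the other 7 mice of that group, and its fold change of 1.29 ± 0.81 became -0.30 ± 0.82 without that library and 1.99 ± 0.85 without NTC male 1. The cortical and thalamic list had 4 of 17 genes above 0 (median -0.14) and was at 0.63 for NTC against untreated; Tcf7l2, a gene of thalamic neurons that is also on the oligodendrocyte precursor list, was at 0.30 ± 0.15, and at 0.18 ± 0.14 (unadjusted p = 0.223) without HTT-10150 male 4, whose summed thalamic markers stood apart at 19.7 CPM. Blood genes had 1 of 7 above 0 (median -0.06) and immediate early genes 15 of 22 (median 0.04). The list that joins developmental factors raised in zQ175 mice with Polycomb genes had 13 of 18 (median 0.04). These lists had 0 genes at an unadjusted p under 0.05. Without HTT-10150 female 2 and NTC male 1, Htt was at -0.37 ± 0.09, Fcrls at 0.21 ± 0.09 and the number of called genes was again 0 (426 at an unadjusted p under 0.05).

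Genes that distinguish zQ175 from wild-type striatum were read in the treated wild-type mice. In untreated mice on 6[4]10, 5691 genes (36.1% of those tested) were called between the genotypes, 3018 higher and 2673 lower in zQ175, Htt among the latter. Of the 3018 higher genes, 45.2% had a fold change above 0 after HTT-10150 (median -0.01), and of the other 2672 lower genes 48.8% did (median -0.002), beside 49.2% of all genes. None of them was called. Genes chosen instead in untreated mice on 2[4]6 gave 46.1% of 2405 higher genes and 50.7% of 2706 lower genes above 0.

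Tests of the difference between sets found 1 gene. The fold change of zQ175 mice minus that of wild-type mice called 0 of 15757 genes (0%; 673 at an unadjusted p under 0.05, smallest adjusted p 0.98), and DESeq2 called 0. The difference between 6[4]10 and 2[4]6 called 0 of 16295 genes (0%; 439 at that p), and that between 6[4]10 and 2+6[8]10 called 0 (0%; 461), with DESeq2 also at 0 for both. Males minus females called 1 gene (0.00635%), Rpl14-ps1, a processed pseudogene of a ribosomal protein gene. Treated females were at 0.286, 0.496, 0.815 and 0.927 CPM and NTC females at 1.15, 1.41, 2.17 and 2.44 CPM, whereas treated males were at 1.35, 1.60, 1.81 and 1.88 CPM and NTC males at 0.186, 0.343, 0.761 and 1.06 CPM. The groups did not overlap in either sex and moved in opposite directions (-1.48 ± 0.38 in females, 1.45 ± 0.39 in males, difference 2.93 ± 0.55, edgeR adjusted p = 0.0436). As this test chose the gene, its separation is not separate evidence, and the share of all genes separating so is not given. The counts were 4 to 49 per library, and reads cannot be told apart with certainty from those of its near-identical parent Rpl14, which had a sex difference of -0.08 (unadjusted p = 0.394).

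Few genes were called in the other wild-type sets. On 2[4]6 the list of called genes held 1 of 15716 (0.00636%), Abca8a, a lipid transporter gene of oligodendrocytes, at 0.32 ± 0.06 (edgeR adjusted p = 0.0196), and its value on 6[4]10 was 0.05 ± 0.07 (unadjusted p = 0.522). On 2+6[8]10 it held 2 of 15506 (0.0129%), Htt and Fcrls. In zQ175 mice on 6[4]10 it held 0 of 15757 (0%; 561 at an unadjusted p under 0.05).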

How the data were processed

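Polyadenylated RNA of the striatum was sequenced, and each library is a separate mouse, per the labels. The deposited table used for all tests holds RSEM expected counts per gene on GRCm38, per the submitters' processing notes; the labels state no aligner, annotation or version. Another deposited table carries FPKM in its name, but all its columns have the same sum, so its values were handled as TPM and used for Htt alone: 22.97 ± 4.43 TPM after HTT-10150 and 28.5 ± 1.93 TPM after NTC (SD, n = 8 each; exact permutation p = 0.00233). Of 41135 entries, 41128 name a mouse gene; the other 7 held 5.91e-06% of counts and were left out. The positions printed are those of GENCODE M21 (GRCm38).

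Expected counts were rounded (78.2% of nonzero values were whole). The main model was edgeR 4.0.16 in R 4.3.3: quasi-likelihood F test, robust, TMM, filterByExpr, over the 48 libraries of 6[4]10 in 6 groups with a sex term, and Benjamini-Hochberg adjustment. It was run on simulated data with changes larger than that of Htt, so that run does not show its power for smaller changes. Differences between schedules came from 1 model of all 143 libraries. A standard error was taken as the size of the fold change over the root of F, and 95% intervals as 1.96 of these. Alternatives included DESeq2 1.42.0, limma 3.58.1, other scaling, filters, sets of libraries, blocks and covariates. Single values of Htt had exact two-sided permutation tests.

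Named genes are Htt, the 10 of smallest p in each direction (mean log2 CPM over 1, the sexes alike in direction), at most 2 members a direction from each list, genes called in a test, 12 genes of striatal identity, glia and huntingtin biology, fixed cell type markers, and genes that overlap or lie next to these; a few of these are not reported here. The comparison, lists and markers were chosen with earlier results of these data known. Replicate numbers run within sex in each group and were not taken as pairs.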

Additional observations from a re-analysis of the deposited data

Results flagged for a closer look

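The 8 libraries of each group were checked, for 61 named genes and 11 marker lists, for a highest or lowest library far from the other 7. In 16 of these checks there was one, and chance alone gives about 5% of them. In HTT-10150 female 2 the summed choroid plexus markers were 2586 CPM and the summed liver markers, a list that shares Ttr with them, 2439 CPM, with Folr1 at 23.6 CPM and Bgn at 14.9 CPM, and in NTC male 1 the choroid plexus markers were 887 CPM, the liver markers 861 CPM and Folr1 2.93 CPM. In NTC female 4 the summed cortical excitatory markers were 376 CPM, Bdnf 8.61 CPM and Uqcrc2 171 CPM. In HTT-10150 male 4, the mouse with the least Htt, the summed thalamic markers were 19.7 CPM and Osmr 6.93 CPM.

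Single genes stood apart in 4 other libraries. Osmr was 6.13 CPM in NTC male 4, Cdh5 was lowest in NTC female 1 at 10.7 CPM, Ifit3b was 7.07 CPM in HTT-10150 male 3 and Pde10a was 2019.8 CPM in NTC male 3.

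The effect of HTT-10150 on Rpl14-ps1 differed between the sexes by 2.93 on the log2 scale, males minus females, with all 4 treated females below and all 4 treated males above the controls of their sex. The gene was chosen by the test of that difference. In untreated mice, females were at 1.08 to 1.27 CPM and males at 0.514 to 0.815 CPM.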

How the results depend on the processing

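Besides the main model, 30 other settings were run, 16 of them leaving out 1 library each. Genes called numbered 0 in all of them but the fit of all 143 libraries, which called 1, Htt, at -0.34 with an edgeR adjusted p of 0.0181. The fold change of Htt ran from -0.39 to -0.27 over the 30 settings and over the 16 omissions alike, and its adjusted p from 0.0181 to 1 (0.531 to 1 over the omissions). Leaving out the 2 libraries rich in choroid plexus markers was chosen after seeing the data.

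With the replicate number as a block, Htt was at -0.34 and 0 genes were called, with 552 at an unadjusted p under 0.05 against 517. Same-numbered mice correlated in their deviations from the group means at r between -0.19 and 0.23, and 4 of 8 matched their own number best. The 5 pairs that share a number in the library name correlated at r between -0.06 and 0.39, and with that number as a block, a fit of the 2 groups alone that rests on those 5 pairs, 965 of 15085 genes were at an unadjusted p under 0.05. It was 696 of 15085 in the fit of these groups with no block, 721 of 15314 with the 24 wild-type libraries and 917 of 25793 with no filter. With untreated mice in place of NTC, fold changes of opposite sign were -0.022 for Lima1, -0.059 for Flt1, -0.048 for Col3a1, -0.089 for Ifit3b, -0.063 for Irf9, 0.86 for Bdnf, -0.028 for Drd2 and -0.049 for Aif1. Blocking on the library-name number gave -0.018 for Nfkbia, 0.044 for Penk, 0.0047 for Adora2a, 0.0032 for Ppp1r1b and -0.013 for P2ry12. Drd2, near 0 in the main model, was -0.0021 with all 143 libraries, -0.0315 with length and GC slopes, -0.0317 with these and the replicate block, and -0.017 without the choroid plexus libraries, where Penk was 0.0033. Over the 16 omissions, Bdnf ran from -0.64 to 0.37, Drd2 from -0.024 to 0.017, Folr1 from -0.30 to 1.99, Penk from -0.049 to 0.012 and Ppp1r1b from -0.039 to 0.012. The cause of these was not tested.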
